A study of Rattus norvegicus with 12 samples.

Results

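The collagen genes of rat intestine were followed through 12 poly(A) RNA-seq libraries, made to study small bowel adaptation when the colon is removed. Every row of the deposited count table whose symbol reads Col, a type number, a and a chain number was taken, which gave 43 of 18749 genes. They encode 11 fibrillar chains, 6 basement membrane chains of collagen IV, 9 FACIT chains (fibril-associated collagens with interrupted triple helices) and 17 other chains. All rats were wild type, and the tissue is labelled only as intestine. The 4 postSTC libraries (replicates 1, 2, 5 and 7) were postoperative, the 4 preSTC libraries (1, 5, 7 and 9) were preoperative, and the 4 preCTC libraries (1, 5, 7 and 9) were taken before sham surgery. The labels leave STC and CTC without a meaning and give no age, sex or interval between operation and sampling. Whether each replicate is an animal of its own is not labelled, and the p-values describe only how far these samples, perhaps technical repeats, scatter. Effects of surgery and of elapsed time cannot be told apart, since postoperative libraries of the sham arm were not analysed here.

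Collagens are secreted proteins of 3 chains wound into a triple helix. Fibrillar collagens I and III build the load-bearing fibrils of the intestinal submucosa and muscle coat, while collagen IV forms the sheet-like network under the epithelium and around smooth muscle, nerves and vessels. FACIT collagens sit on fibril surfaces, collagen VI forms beaded filaments that link cells to fibrils, and collagen XV and XVIII join basement membranes to the tissue around them. In the gut wall the chains come mostly from fibroblasts and smooth muscle cells, with part of collagen IV made by other cells that rest on a basement membrane.

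The libraries held 30095656 to 39374682 counts. Markers of gut region differed between groups. Slc10a2, the bile acid transporter of the ileal epithelium, stood at 524 to 578 CPM (reads scaled to a common library size after trimmed-mean normalisation) in preSTC, at 155 to 261 CPM in postSTC and at 0.105 to 0.458 CPM in preCTC. Hoxb13, a homeobox gene of the hindgut, stood at 0.0560 to 0.311 CPM in preSTC, at 42.2 to 125 CPM in postSTC and at 315 to 445 CPM in 3 preCTC libraries, with 1.44 CPM in preCTC5. Slc10a2 overlapped between no groups, and Hoxb13 did not overlap between postSTC and preSTC. The labelled group and the gut region these markers track therefore cannot be told apart in any of the 3 collagen comparisons, that of postSTC with preSTC included. Below, the words rose, fell and after the operation name only the difference between the postSTC and preSTC libraries. In postSTC7, 13 genes of male accessory glands took 42.3% of all counts, against 0.0174% to 0.0241% in the other postSTC libraries, 0.0195% in preSTC7 and at most 2.54e-05% in the remaining libraries of the other groups. In bulk tissue, fewer cells of a type and less RNA per cell cannot be told apart.

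Col3a1 led the collagens per unit of gene length in every group. On the FPKM scale (CPM per kilobase of the gene length the authors used), Col3a1 had the highest mean level in preCTC, at 677, followed by Col1a1 at 216, Col1a2 at 196, Col6a1 at 161 and Col6a2 at 118. The 4 preCTC libraries of Col1a1 and Col1a2 overlap on this scale, so the order of those neighbours is not resolved. In preSTC the leading level was again that of Col3a1, with a mean of 182 FPKM. It was followed by Col1a1 at 79.0, Col1a2 at 70.6 and Col6a1 at 68.2 FPKM. In postSTC, Col3a1 at 206 FPKM was followed by Col1a2 at 91.7, Col6a1 at 89.7 and Col1a1 at 81.5 FPKM. The libraries of Col1a1, Col1a2 and Col6a1 overlapped in preSTC and in postSTC, so their order there is not resolved. Of the 43 genes, 28 reached a mean of 1 FPKM in at least 1 group, 16 reached 10 FPKM and 5 reached 100 FPKM. Col2a1, the fibril chain of cartilage, and Col26a1 were too low to be tested, which left 41 genes.

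**Figure D1:**
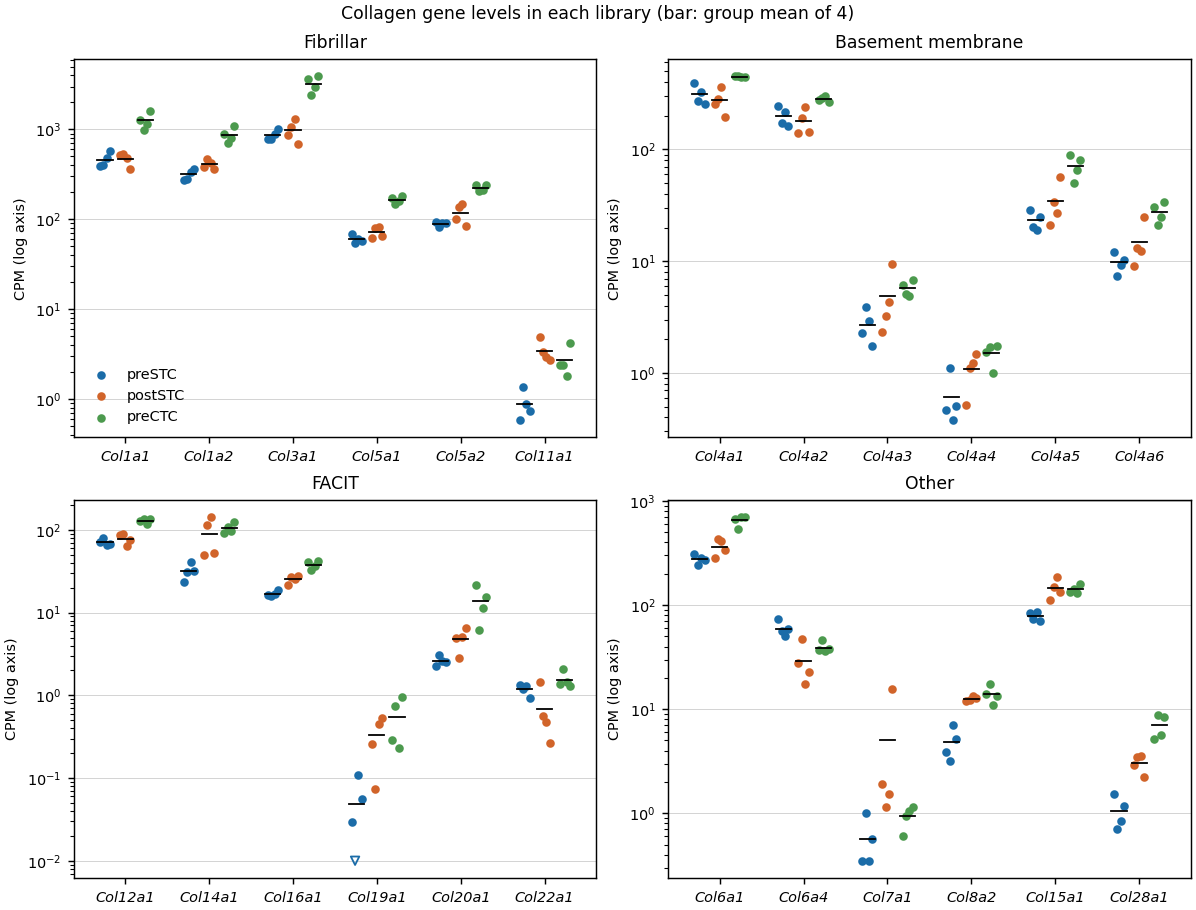
CPM on log axes (different in each panel) for 24 collagen genes in 4 panels, with 1 point per library and a bar at each mean of 4; an open triangle marks the preSTC library in which Col19a1 had 0 counts. The preCTC points of Col1a1, Col1a2, Col3a1, Col5a1 and Col5a2 lie above all other points of those genes, whereas the preSTC points of Col8a2, Col11a1, Col14a1 and Col15a1 lie below both other groups.

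After the operation the main fibril and network chains passed in neither direction, and a small group of low to moderate collagens was called higher. Compared with preSTC, postSTC had higher Col11a1, Col14a1, Col15a1, Col16a1, Col28a1, Col8a2 and Col7a1, by 1.49-fold (Col16a1) to 8.80-fold (Col7a1), and lower Col6a4, by 2.07-fold. These 7 higher genes are 17.1% of the 41 tested, beside 11.1% of all 15704 genes higher at an edgeR adjusted p under 0.05. In either direction 8 of the 41 were called, beside 18% of all genes. The 1 lower gene is 2.44%, beside 6.9% of all genes. These 8 genes are also the ones whose libraries did not overlap between the groups (7 higher and 1 lower), beside 11.9% and 10.2% of all genes. By class, 1 of 10 fibrillar, 0 of 6 basement membrane, 2 of 9 FACIT and 4 of 16 other genes were higher. None of the 6 basement membrane genes had an unadjusted p under 0.05 or a call by DESeq2. The 33 remaining genes passed in neither direction, although 16 of the 41 had an unadjusted p under 0.05. The median log2 fold change was 0.33 over the 41 genes and 0.04 over all genes.

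The calls of this comparison depended on the model. Same-numbered postSTC and preSTC libraries deviated together across all genes but not over the collagen genes alone. With the replicate number as a block the 12-library fit called 6 genes higher and 1 lower, losing Col7a1. The 8-library fit called 0 collagen genes and 66 genes in all. Only replicates 1, 5 and 7 occur in both groups there, so postSTC2 and preSTC9 carry no weight in the difference. Few libraries set the spread of that fit, and its lack of calls does not show that the differences are absent. The log2 fold changes in that 8-library fit were 1.88 for Col11a1, 1.49 for Col8a2, 1.53 for Col28a1, 0.58 for Col16a1 and -1.42 for Col6a4. Without the block these were 1.96, 1.38, 1.52, 0.58 and -1.05. For Col14a1, Col15a1 and Col7a1 the 8-library block fit gave smaller values, at 1.2, 0.78 and 2.73, from 1.5, 0.89 and 3.14. A fit that added a smooth muscle score as covariate called 0 collagen genes and 136 genes in all, and limma on log2(FPKM + 1) called 1 collagen gene. With the covariate the log2 fold changes were 2.32 for Col11a1, 1.37 for Col14a1, 0.87 for Col15a1, 0.57 for Col16a1 and 1.59 for Col28a1, beside 1.96, 1.5, 0.89, 0.58 and 1.52 without it. Those of Col8a2, Col7a1 and Col6a4 were smaller in size, at 0.81, 0.52 and -0.84, from 1.38, 3.14 and -1.05. That score, the centred mean log2 CPM of 12 markers, ran from -1.06 to -0.49 in preSTC and from -0.13 to 0.47 in postSTC, so it and the group cannot be told apart, and the lost calls do not show that the differences are absent.

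Against preCTC, preSTC had less collagen RNA in every class. In preSTC, 26 of 41 genes (63.4%) were lower and 0 were higher in edgeR's test at an adjusted p under 0.05, beside 38.7% of all genes called, 19.6% lower and 19.1% higher. At an unadjusted p under 0.05, 3 were higher (Col6a4, Col13a1 and Col23a1); DESeq2 called 2 collagen genes higher in that comparison and limma voom 1. The lower genes were 8 of 10 fibrillar, 5 of 6 basement membrane, 5 of 9 FACIT and 8 of 16 other chains. The median log2 fold change was -1.16, against -0.02 over all genes. In 28 of the 41 genes all 4 preSTC libraries lay below all 4 preCTC libraries, beside 22.5% of all genes, and in 3 (Col6a4, Col13a1 and Col23a1) all lay above, likewise beside 22.5% of all genes. The fit with that smooth muscle covariate left 8 genes lower, namely Col1a1, Col1a2, Col3a1, Col5a1, Col5a2, Col6a1, Col6a2 and Col16a1. Of the 18 without a call there, log2 fold changes were -2.85 for Col28a1, -3.02 for Col20a1, -1.01 for Col12a1, -0.83 for Col15a1 and -1.08 for Col4a1. Without the covariate these were -2.73, -2.39, -0.86, -0.86 and -0.52. Col8a2, Col19a1, Col11a2 and Col4a4 were smaller in size (-0.53, -0.99, -0.68 and -0.74, from -1.52, -3.44, -1.31 and -1.27). So, by less, were Col4a6, Col14a1, Col8a1 and Col4a5 (-1.17, -1.49, -1.44 and -1.57, from -1.50, -1.73, -1.55 and -1.61). Col11a1, Col27a1, Col4a2, Col6a3 and Col6a5 were larger in size with the covariate. The score ran from 0.40 to 1.13 in preCTC, with no overlap with preSTC, so here too it and the group cannot be told apart.

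Between postSTC and preCTC, 19 of 41 genes (46.3%) were lower and 0 higher, beside 16.6% of all genes called, 7.37% lower and 9.27% higher; 2 (Col7a1 and Col23a1) had an unadjusted p under 0.05 in the higher direction, and 1 collagen gene was higher by DESeq2. The lower genes were 6 fibrillar, 4 basement membrane, 3 FACIT and 6 other chains, with a median log2 fold change of -0.70 over the 41 genes and 0.04 over all genes. All 4 postSTC libraries lay below all 4 preCTC libraries in 16 of the 41 genes and above them in 1 (Col7a1), beside 8.6% and 9.54% of all genes. The 3 comparisons share libraries in pairs, so their values are not independent. By group means, preCTC was highest in 30 of the 41 genes and preSTC was lowest in 29. In 28 genes postSTC lay between the other groups. The order of group means was not counted over all genes, so it cannot be called particular to the collagens.

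**Figure D2:**
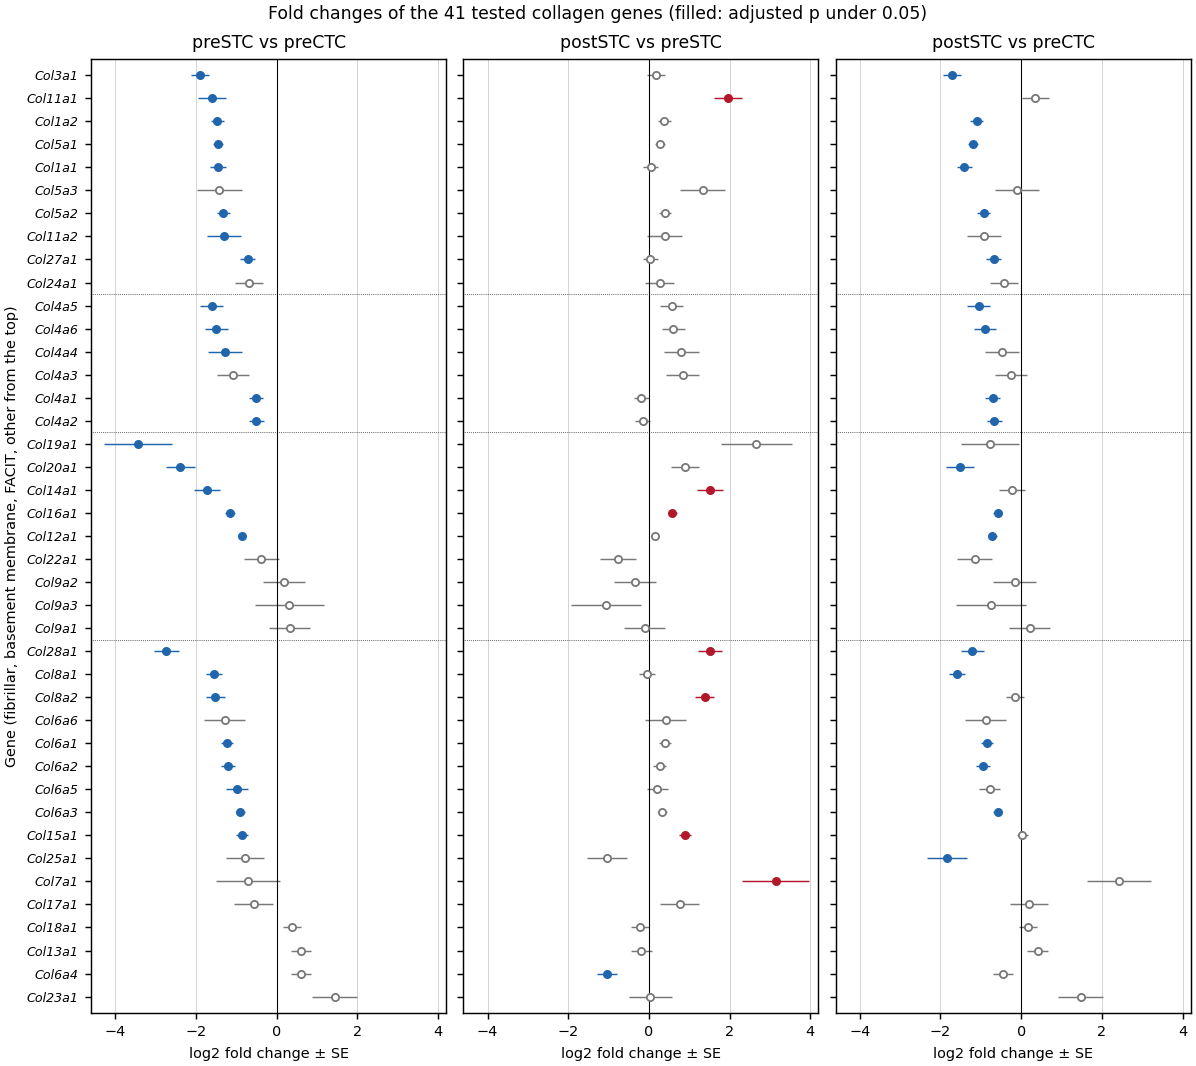
Log2 fold change with its standard error from edgeR for each of the 41 tested collagen genes, in classes separated by dotted lines; filled points have an adjusted p under 0.05, red for higher and blue for lower. The left panel holds 26 blue points and no red point, the middle panel 7 red and 1 blue, and the right panel 19 blue.

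Collagen III, made of 3 alpha 1(III) chains, showed the largest fold difference from preCTC among the called fibrillar genes. Col3a1 stood at 786, 776, 893 and 1022 CPM in preSTC1, 5, 7 and 9, at 861, 1078, 1310 and 686 CPM in postSTC1, 2, 5 and 7, and at 3648, 2431, 2930 and 3904 CPM in preCTC1, 5, 7 and 9. No preCTC library overlapped either other group, while preSTC and postSTC overlapped fully. Col3a1 was 3.71-fold lower in preSTC than in preCTC (log2 fold change -1.89 ± 0.23 SE, edgeR adjusted p = 7.37e-05) and 3.28-fold lower in postSTC than in preCTC (-1.71 ± 0.22, edgeR adjusted p = 0.000425). Between postSTC and preSTC its log2 fold change was 0.18 ± 0.22 (edgeR adjusted p = 0.603).

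Collagen I is built from alpha 1 chains and an alpha 2 chain. Col1a1 stood at 394, 398, 478 and 570 CPM in preSTC, at 515, 534, 484 and 366 CPM in postSTC and at 1276, 980, 1161 and 1621 CPM in preCTC, in the order of replicates above. Its partner Col1a2 stood at 275, 282, 337 and 367 CPM in preSTC, at 378, 475, 421 and 364 CPM in postSTC and at 897, 714, 793 and 1099 CPM in preCTC. For both genes the preCTC libraries again lay above all others. In preSTC against preCTC, Col1a1 was 2.74-fold lower (-1.45 ± 0.19, edgeR adjusted p = 0.000143) and Col1a2 was 2.78-fold lower (-1.47 ± 0.16, edgeR adjusted p = 3.89e-05). In postSTC against preCTC the log2 fold changes were -1.41 ± 0.19 for Col1a1 and -1.10 ± 0.16 for Col1a2. After the operation neither passed the test, with log2 fold changes of 0.05 (edgeR adjusted p = 0.890) and 0.38 (edgeR adjusted p = 0.115). The direction for Col1a1 turned with the scaling, to -0.07 on log2(FPKM + 1).

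The 2 chains of collagen I kept a nearly fixed ratio of counts before any operation. Col1a1 counts over Col1a2 counts ran from 1.41 to 1.55 in preSTC and from 1.37 to 1.47 in preCTC, but from 1.01 to 1.36 in postSTC. All 4 postSTC ratios lay below all 8 others. The log2 ratio was 0.33 lower in postSTC than in preSTC and 0.31 lower than in preCTC, each with a two-sided exact permutation p of 0.0286, the smallest that 4 against 4 libraries allow. After Benjamini-Hochberg adjustment over the 18 ratio tests both stood at 0.129, so neither passed. Of the other ratios, Col1a1 over Col3a1 in preSTC against preCTC (0.43 higher on the log2 scale) and Col4a5 over Col4a1 in the same comparison (1.06 lower) reached the same exact permutation p of 0.0286 and adjusted value of 0.129.

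Minor fibrillar chains of collagens V and XI are built into type I and II fibrils and set their diameter. Col5a1 stood at 54.3 to 68.7 CPM in preSTC, 62.0 to 81.5 CPM in postSTC and 146 to 183 CPM in preCTC. It was 2.76-fold lower in preSTC (-1.46 ± 0.12, edgeR adjusted p = 5.71e-06) and 2.29-fold lower in postSTC (-1.20 ± 0.12, edgeR adjusted p = 5.85e-05) than in preCTC. Its partner Col5a2 had means of 89.7 ± 5.04 (SD, n = 4), 118 ± 30.1 and 224 ± 18.6 CPM in preSTC, postSTC and preCTC. Both of these collagen V genes passed against preCTC in each comparison and in neither direction after the operation (log2 fold changes 0.27 and 0.40).

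Col11a1 was low everywhere and was the fibrillar gene called higher in postSTC than in preSTC. It stood at 0.582, 1.35, 0.891 and 0.728 CPM in preSTC, at 4.88, 3.35, 2.95 and 2.69 CPM in postSTC and at 2.41, 2.38, 1.83 and 4.24 CPM in preCTC. All postSTC and preCTC libraries lay above all preSTC libraries, and those first 2 groups overlapped. The gene was 3.89-fold higher in postSTC than in preSTC (1.96 ± 0.36, edgeR adjusted p = 0.00434) and 3.05-fold lower in preSTC than in preCTC (-1.61 ± 0.35, edgeR adjusted p = 0.00385). Against preCTC, postSTC differed by 0.35 ± 0.34 (edgeR adjusted p = 0.523).

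Of the remaining fibrillar genes, Col5a3 was uneven within groups, with 7.98 to 34.4 CPM in preSTC and 13.1 to 91.4 CPM in postSTC against 42.2 to 73.4 CPM in preCTC. Its log2 fold changes were 1.33 ± 0.56 for postSTC against preSTC (edgeR adjusted p = 0.115) and -1.42 ± 0.56 for preSTC against preCTC (edgeR adjusted p = 0.0619). Col11a2 and Col27a1 were lower in preSTC than in preCTC, by 2.47-fold and 1.65-fold, and Col27a1 was also lower in postSTC, by 1.61-fold (edgeR adjusted p = 0.0264). Leaving out single libraries ended the Col11a2 call in 5 of 8 fits (preSTC1, 5 and 7 and preCTC1 and 9, adjusted p up to 0.0877) and the second Col27a1 call in 4 of 8 (postSTC5 and preCTC5, 7 and 9, adjusted p up to 0.0637). Col24a1 stayed below 5 CPM and passed in no comparison.

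Collagen IV has 6 chain genes that lie as 3 head-to-head pairs, with each pair transcribed in opposite directions. In RefSeq on assembly GRCr8, a later build than the mRatBN7.2 named for the counts, 76 bases separate the starts of Col4a1 and Col4a2 on chromosome 16, 412 bases those of Col4a3 and Col4a4 on chromosome 9 and 1263 bases those of Col4a5 and Col4a6 on chromosome X. The stretches between or before these starts are shown because the pairs share them, and the ratio of counts within each pair is given next. A narrow ratio was not particular to head-to-head neighbours: the highest ratio over the lowest in the 12 libraries was 1.34 for Col4a1 and Col4a2, 1.41 for Col4a5 and Col4a6 and 2.65 for Col4a3 and Col4a4, beside 1.24 for Col6a1 and Col6a2 and 1.40 for Col5a1 and Col5a2. The first line is the whole interval between Col4a2 and Col4a1 (chr16:84885521-84885596, plus strand), the second 88 bases upstream of both Col4a4 and Col4a3 (chr9:91323740-91323827, plus strand), and the last lines the 100 bases before Col4a5 (chrX:109907151-109907250, plus strand) and before Col4a6 (chrX:109905988-109906087, minus strand). Capitals mark GGGCGG or its reverse complement CCGCCC, the core of a GC box.
Col4a2-Col4a1: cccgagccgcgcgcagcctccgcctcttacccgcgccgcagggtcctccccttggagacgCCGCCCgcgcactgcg
Col4a4-Col4a3: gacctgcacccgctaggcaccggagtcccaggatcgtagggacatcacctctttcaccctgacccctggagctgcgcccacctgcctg
Col4a5: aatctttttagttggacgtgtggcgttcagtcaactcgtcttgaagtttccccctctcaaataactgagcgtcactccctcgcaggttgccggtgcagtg
Col4a6: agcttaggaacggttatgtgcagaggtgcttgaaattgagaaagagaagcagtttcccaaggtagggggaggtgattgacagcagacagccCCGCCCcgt

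The common network chains Col4a1 and Col4a2 had the highest FPKM of the 6 in every group and the smallest fold differences between preSTC and preCTC. Col4a1 stood at 396, 274, 324 and 255 CPM in preSTC, at 257, 284, 363 and 194 CPM in postSTC and at 452, 450, 441 and 443 CPM in preCTC. Col4a2 stood at 246, 173, 216 and 162 CPM in preSTC, at 142, 190, 239 and 144 CPM in postSTC and at 279, 286, 299 and 267 CPM in preCTC. The preCTC libraries lay above all others for both genes, and their Col4a1 values differed by less than those of the other groups (SD 5.20 CPM, against 63.3 in preSTC and 69.8 in postSTC). Both were lower in preSTC than in preCTC, by 1.43-fold and 1.42-fold, but at edgeR adjusted p of 0.0428 and 0.0424. Those calls held in 1 of the 8 fits that left out a library: Col4a1 and Col4a2 passed without preSTC1, and without each other library the adjusted p ran up to 0.134 and 0.125. In postSTC against preCTC they were 1.63-fold and 1.58-fold lower (edgeR adjusted p = 0.0225 and 0.0264). The Col4a1 call was lost without preCTC1 (adjusted p = 0.0525) and that of Col4a2 without postSTC1, preCTC1, preCTC5 or preCTC7 (adjusted p up to 0.0638). Neither passed between postSTC and preSTC (log2 fold changes -0.19 and -0.16).

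Col4a5 and Col4a6, which make the second kind of network found around visceral smooth muscle, differed more. Col4a5 stood at 29.0, 20.2, 19.1 and 24.9 CPM in preSTC, at 21.2, 33.5, 26.9 and 56.3 CPM in postSTC and at 89.6, 49.8, 64.9 and 80.3 CPM in preCTC. Its neighbour Col4a6 stood at 12.1, 7.30, 9.29 and 10.3 CPM in preSTC, at 8.99, 13.2, 12.4 and 24.8 CPM in postSTC and at 30.8, 21.0, 25.0 and 33.6 CPM in preCTC. Library postSTC7 was the highest postSTC library for both and lay within the preCTC range. In preSTC against preCTC, Col4a5 was 3.05-fold lower (-1.61 ± 0.29, edgeR adjusted p = 0.00108) and Col4a6 2.83-fold lower (-1.5 ± 0.29, edgeR adjusted p = 0.00168). In postSTC against preCTC, log2 fold changes were -1.05 ± 0.28 and -0.90 ± 0.28 (edgeR adjusted p = 0.0260 and 0.0491). Those last calls were less stable, holding in 3 and 2 of the 8 fits without 1 library. Without postSTC1 the adjusted p was 0.0523 and 0.0961, without postSTC2 0.0602 and 0.111, without postSTC5 0.0626 and 0.104, without preCTC1 0.0767 and 0.114, and without preCTC9 0.0631 and 0.118. Without preCTC7 only Col4a6 was lost, at 0.0768. Without postSTC7 both calls held and the differences were larger, at -1.39 and -1.26 (edgeR adjusted p = 0.00163 and 0.00213). Between postSTC and preSTC the log2 fold changes were 0.56 and 0.60, and neither passed.

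In the more abundant pairs the genes kept a narrower ratio of counts than in the pair Col4a3 and Col4a4. Over all 12 libraries, Col4a1 over Col4a2 ran from 1.35 to 1.82 with a median of 1.57, and Col4a5 over Col4a6 from 2.06 to 2.91 with a median of 2.39. Across the pairs the balance was less fixed: the log2 ratio of Col4a5 to Col4a1 was -3.74 ± 0.30 (SD, n = 4) in preSTC, -3.05 ± 0.89 in postSTC and -2.68 ± 0.37 in preCTC. Col4a3 and Col4a4, best known from kidney and lung basement membranes, stayed below 10 CPM, and their ratio of counts ran from 2.93 to 7.79. The gene length the authors used was 8137 bases for Col4a3 but 1152 for Col4a4. On the FPKM scale the mean of Col4a4 was the higher, at 0.534 against 0.333 in preSTC. In postSTC the means were 0.939 and 0.596, and in preCTC 1.30 and 0.704. Col4a4 was 2.42-fold lower in preSTC than in preCTC (edgeR adjusted p = 0.0324), a call that held in 2 of the 8 fits without 1 library (without preSTC5 or preCTC7; adjusted p otherwise up to 0.0899), and Col4a3 had a log2 fold change of -1.08 at an adjusted p of 0.0507. Whether counting used strand is not stated, so reads from any overlap of the paired transcripts cannot be assigned to either gene.

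**Figure D3:**
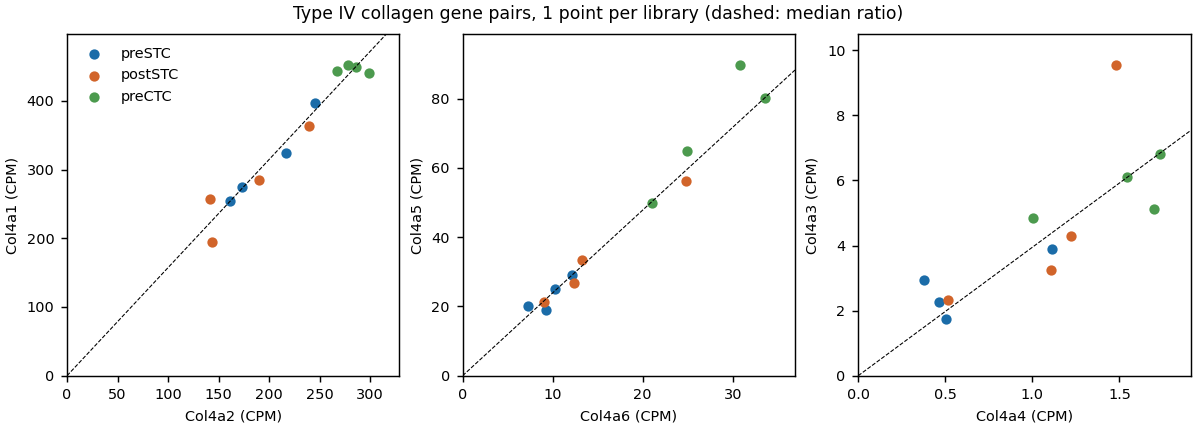
CPM of each collagen IV gene (vertical) against its head-to-head neighbour (horizontal), 1 point per library, with a dashed line at the median ratio. Points of Col4a1 and Col4a2 and of Col4a5 and Col4a6 follow the line from the lowest to the highest library, and those of the low-count pair Col4a3 and Col4a4 scatter more.

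Among FACIT collagens, Col14a1 and Col16a1 were called higher in postSTC than in preSTC. Col14a1, a fibril-surface collagen of dense connective tissue, stood at 23.3, 30.8, 41.4 and 32.1 CPM in preSTC, at 50.3, 116, 144 and 52.1 CPM in postSTC and at 91.5, 109, 97.0 and 126 CPM in preCTC. Every postSTC library lay above every preSTC library, with postSTC2 and postSTC5 more than 2-fold above postSTC1 and postSTC7. Col14a1 was 2.84-fold higher in postSTC than in preSTC (1.5 ± 0.32, edgeR adjusted p = 0.00939) and 3.32-fold lower in preSTC than in preCTC (-1.73 ± 0.32, edgeR adjusted p = 0.00143). Between postSTC and preCTC it differed by -0.23 ± 0.31 (edgeR adjusted p = 0.673), a sign that turned to 0.29 without postSTC1 and postSTC7.

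Col16a1 varied little within groups and stepped between all 3. It stood at 16.3, 16.0, 17.0 and 18.7 CPM in preSTC, at 21.8, 26.7, 25.3 and 27.5 CPM in postSTC and at 40.5, 33.0, 36.2 and 41.9 CPM in preCTC, with no overlap between any groups. It was 1.49-fold higher in postSTC than in preSTC (0.58 ± 0.11, edgeR adjusted p = 0.00599) and still 1.5-fold lower than in preCTC (-0.58 ± 0.11, edgeR adjusted p = 0.00432). The difference of preSTC from preCTC was 2.23-fold (-1.16 ± 0.11, edgeR adjusted p = 1.77e-05).

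Col12a1, a FACIT chain of tension-bearing fibrils, passed against preCTC and not after the operation. It stood at 66.3 to 79.4 CPM in preSTC and 64.6 to 88.2 CPM in postSTC, beside 118 to 135 CPM in preCTC. The log2 fold change was 0.15 ± 0.11 after the operation (edgeR adjusted p = 0.368), and -0.86 ± 0.11 and -0.72 ± 0.11 against preCTC (edgeR adjusted p = 0.000110 and 0.00103). Col20a1 stood at 2.24 to 3.06 CPM in preSTC, 2.83 to 6.49 CPM in postSTC and 6.24 to 21.7 CPM in preCTC, and was 5.26-fold and 2.84-fold lower than preCTC. Col19a1, the lowest tested member on the FPKM scale in each group, stood at 0 to 0.108 CPM in preSTC against 0.231 to 0.964 CPM in preCTC (log2 fold change -3.44 ± 0.85, edgeR adjusted p = 0.00777). Its postSTC libraries reached 0.0739 to 0.537 CPM, at a log2 fold change of 2.66 over preSTC that missed the threshold (edgeR adjusted p = 0.0530). Col22a1, a chain of tissue junctions such as those between muscle and tendon, and the collagen IX genes Col9a1, Col9a2 and Col9a3, known from cartilage, passed in no comparison.

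The 3 classical collagen VI chains held 19.7% of collagen counts in preSTC, 21.5% in postSTC and 17.6% in preCTC, and had similar profiles. Col6a1 stood at 310, 245, 285 and 272 CPM in preSTC, at 284, 428, 412 and 338 CPM in postSTC and at 678, 539, 701 and 705 CPM in preCTC. Col6a2 stood at 299, 237, 259 and 272 CPM in preSTC, at 241, 404, 364 and 273 CPM in postSTC and at 635, 524, 656 and 653 CPM in preCTC. Counts of Col6a1 over Col6a2 ran only from 0.999 to 1.24 over the 12 libraries, and preCTC overlapped no other group for either gene.

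Both genes and Col6a3, whose large chain completes the classical heterotrimer, were lower in preSTC than in preCTC, by 2.36-fold, 2.31-fold and 1.88-fold (edgeR adjusted p = 8.65e-05, 0.000193 and 9.12e-05). In postSTC they were 1.79-fold, 1.92-fold and 1.49-fold lower than in preCTC (edgeR adjusted p = 0.00275, 0.00247 and 0.00444). After the operation none of the 3 passed. Log2 fold changes were 0.40 ± 0.15 for Col6a1 (edgeR adjusted p = 0.0851), 0.27 ± 0.16 for Col6a2 (0.279) and 0.33 ± 0.11 for Col6a3 (0.0576). DESeq2 called Col6a1 and Col6a3 higher (adjusted p = 0.0436 and 0.0317), and edgeR called Col6a1 higher without postSTC1 (adjusted p = 0.0240).

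Col6a4, an alpha 3-like chain of the same collagen, went the other way. It stood at 73.3, 56.3, 50.1 and 58.4 CPM in preSTC, at 27.8, 46.9, 17.5 and 22.9 CPM in postSTC and at 36.7, 45.8, 35.9 and 38.1 CPM in preCTC. All preSTC libraries lay above all others. It was 2.07-fold lower in postSTC than in preSTC (-1.05 ± 0.25, edgeR adjusted p = 0.0154), and preSTC exceeded preCTC by 0.60 ± 0.25, which did not pass (edgeR adjusted p = 0.0737). Col6a5 was 1.99-fold lower in preSTC than in preCTC (77.4 ± 11.1 against 154 ± 29.3 CPM, SD, n = 4; edgeR adjusted p = 0.0123), and Col6a6 stayed below 5 CPM with no call.

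Of the multiplexins, collagens XV and XVIII, the first had calls and the second had none. Col15a1, which bridges basement membranes and fibrils around vessels and muscle, stood at 83.7, 72.9, 86.7 and 71.0 CPM in preSTC, at 111, 151, 187 and 134 CPM in postSTC and at 134, 144, 132 and 160 CPM in preCTC. Every postSTC and preCTC library lay above every preSTC library. It was 1.85-fold higher in postSTC than in preSTC (0.89 ± 0.15, edgeR adjusted p = 0.00270), 1.81-fold lower in preSTC than in preCTC (-0.86 ± 0.15, edgeR adjusted p = 0.000798), and at 0.03 ± 0.14 between postSTC and preCTC. Col18a1, whose C-terminal fragment is endostatin, stood at 96.9 to 171 CPM in preSTC, 69.8 to 147 CPM in postSTC and 79.3 to 104 CPM in preCTC, with overlapping libraries and no call (log2 fold changes -0.22 after the operation, and 0.38 for preSTC and 0.16 for postSTC against preCTC). The difference between these genes was not itself tested.

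Collagen VIII is a short-chain network collagen of vessel walls and of the corneal Descemet membrane, and 1 of its 2 chains was called higher after the operation. Col8a2 stood at 3.87, 3.21, 7.10 and 5.21 CPM in preSTC, at 12.0, 12.3, 13.3 and 12.9 CPM in postSTC and at 13.9, 17.3, 10.9 and 13.5 CPM in preCTC. It was 2.60-fold higher in postSTC than in preSTC (1.38 ± 0.23, edgeR adjusted p = 0.00296), and postSTC and preCTC overlapped (-0.14 ± 0.23). Col8a1 stood at 4.09 to 6.08 CPM in preSTC and 3.75 to 6.54 CPM in postSTC, against 13.6 to 16.8 CPM in preCTC, and was 2.92-fold and 3.00-fold lower than preCTC (edgeR adjusted p = 0.000133 and 0.000340). Its log2 fold change after the operation was -0.04 ± 0.20. The difference between the 2 chains was not itself tested.

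The 150 bases before the starts of Col15a1 (chr5:66297396-66297545, plus strand) and Col8a2 (chr5:143870604-143870753, plus strand) are shown for 2 of the genes that rose, again from RefSeq on GRCr8 and with GC box cores in capitals; the RefSeq table used holds no promoter for Col14a1.
Col15a1: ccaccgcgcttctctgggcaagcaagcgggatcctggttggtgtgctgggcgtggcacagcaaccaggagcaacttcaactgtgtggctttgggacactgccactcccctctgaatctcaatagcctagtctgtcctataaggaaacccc
Col8a2: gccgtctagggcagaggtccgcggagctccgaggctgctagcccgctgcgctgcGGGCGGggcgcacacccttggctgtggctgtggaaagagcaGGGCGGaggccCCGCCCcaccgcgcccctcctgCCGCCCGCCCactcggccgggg

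The 2 sequences differ in these letters. Col8a2 held 5 matches to GGGCGG on either strand, of which 2 overlap, and Col15a1 held none. Promoters were listed for 34 of the 43 members. In the 250 bases before the start, on both strands, GGGCGG was found in 19 of 34 collagen promoters (55.9%) and in 32.4% of 27457 promoters, CCAAT in 10 (29.4%) and 34.3%, TATAAA in 3 (8.82%) and 13.1%, and the CArG box, the site bound by serum response factor, in 1 (2.94%, Col6a4) and 1.5%. These are matches of letters and say nothing of binding.

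Col28a1, a collagen with von Willebrand factor A domains known from peripheral nerve, stood at 1.51, 0.699, 0.837 and 1.18 CPM in preSTC, at 2.88, 3.50, 3.51 and 2.24 CPM in postSTC and at 5.15, 8.85, 5.71 and 8.46 CPM in preCTC. The 3 groups did not overlap. It was 2.88-fold higher in postSTC than in preSTC (1.52 ± 0.30, edgeR adjusted p = 0.00634), 6.66-fold lower in preSTC than in preCTC (-2.73 ± 0.31, edgeR adjusted p = 4.62e-05) and 2.32-fold lower in postSTC than in preCTC (-1.21 ± 0.29, edgeR adjusted p = 0.0142).

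Col7a1, the anchoring fibril collagen of stratified epithelia, rested on a single library for its size. It stood at 0.349, 1.01, 0.351 and 0.560 CPM in preSTC, at 1.91, 1.16 and 1.52 CPM in postSTC1, 2 and 5 but 15.7 CPM in postSTC7, and at 0.602, 0.938, 1.05 and 1.16 CPM in preCTC. All postSTC libraries were above all preSTC libraries. The log2 fold change over preSTC was 3.14 ± 0.82 (edgeR adjusted p = 0.0226), and 1.41 without postSTC7 (edgeR adjusted p = 0.0404). Without preSTC1, preSTC7 or preSTC9 the adjusted p rose to 0.0681, 0.0685 and 0.0585. With only the 8 compared libraries the edgeR adjusted p was 0.0607. Limma did not call the gene either, at an adjusted p of 0.110 with voom and 0.0946 on log2(FPKM + 0.1). The accessory gland genes stood highest in the same library, and their part in the Col7a1 value was not tested.

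The transmembrane collagens were low. Col17a1, a hemidesmosome component of epithelial cells, and Col13a1 and Col23a1 passed in no comparison. All 4 preSTC libraries lay above all preCTC libraries for Col13a1 (4.79 to 6.81 against 3.20 to 4.74 CPM) and Col23a1 (5.00 to 8.70 against 0.514 to 4.61 CPM), with edgeR adjusted p of 0.0830 and 0.0598. Col25a1 was 3.55-fold lower in postSTC than in preCTC (0.464 ± 0.126 against 1.66 ± 0.843 CPM, SD, n = 4; edgeR adjusted p = 0.0261). That call was lost without postSTC1, postSTC5 or preCTC9 (adjusted p = 0.0554, 0.0626 and 0.0785).

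Summed over all 43 genes, collagen RNA stood at 3207 to 3742 CPM in preSTC, 3412 to 4820 CPM in postSTC and 7489 to 10488 CPM in preCTC. The preCTC libraries lay far above the other 8, which overlapped. The make-up differed as well. Fibrillar chains held 51.1 ± 4.90% (SD, n = 4) of collagen counts in preSTC and 51.2 ± 3.55% in postSTC, against 64.3 ± 3.55% in preCTC. Collagen III alone held 24.3 ± 2.47%, 23.5 ± 2.91% and 35.6 ± 2.75% in that order, and collagen I held 21.7 ± 2.88%, 21.6 ± 2.42% and 23.6 ± 1.58%. Basement membrane chains held 15.4 ± 2.65%, 12.3 ± 0.94% and 9.41 ± 1.23%. FACIT chains held 4.87 ± 0.20% in postSTC, above 3.57 ± 0.47% in preSTC and 3.26 ± 0.39% in preCTC. These shares are of counts, so long genes weigh more than short ones, and no test was run on them.

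**Figure D4:**
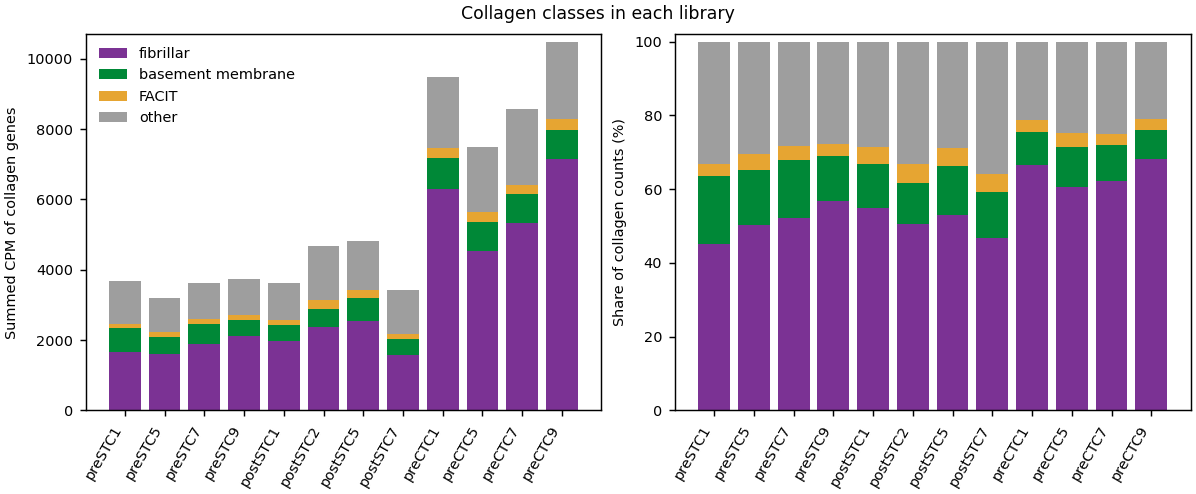
Stacked CPM of the 4 collagen classes (left) and their share of collagen counts in percent (right) for each of the 12 libraries. The preCTC stacks reach 7489 to 10488 CPM and hold the largest fibrillar shares, 60.6% to 68.1%, against 45.0% to 56.8% in preSTC and 46.6% to 54.9% in postSTC.

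Enzymes and chaperones that fold procollagen in the endoplasmic reticulum included calls in each comparison. Of 21 tested genes, 5 were higher in postSTC than in preSTC (P3h3, P4ha1, Plod1, Serpinh1 and P4ha2) and 0 lower, beside 11.1% and 6.9% of all genes. P3h3, of the prolyl 3-hydroxylase family, rose by 0.96 ± 0.12 on the log2 scale (13.2 to 25.7 CPM, edgeR adjusted p = 0.00103) and P4ha1, a prolyl 4-hydroxylase subunit, by 1.01 ± 0.16 (17.4 to 35.1 CPM, edgeR adjusted p = 0.00230). The abundant disulfide isomerases P4hb and Pdia3 did not pass (0.01 and -0.11). In preSTC against preCTC, 9 genes were lower and 2 higher, led by P3h3 (-1.03) and Creb3l1 (-1.42), a transcription factor of collagen-secreting cells. In postSTC against preCTC, Creb3l1 was lower (-1.21 ± 0.19, edgeR adjusted p = 0.00128) and Mia2 and Sec23a, of the export machinery, were higher (0.64 and 0.76). The list medians were 0.47, -0.64 and 0.06. Over all genes, 19.6% were lower and 19.1% higher in preSTC than in preCTC. Between postSTC and preCTC, 7.37% of all genes were lower and 9.27% higher.

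Genes that cleave and crosslink procollagen outside the cell were counted in the same way. Of 12 tested, 4 were higher in postSTC than in preSTC (Lox, Pcolce, Loxl1 and Adamts2), beside 11.1% of all genes. The 1 lower gene was Adamts14, a procollagen N-proteinase (-1.04), beside 6.9% of all genes. Lox, the lysyl oxidase that starts crosslinking, rose from 13.0 to 32.5 CPM (1.32 ± 0.21, edgeR adjusted p = 0.00244), and Pcolce, an enhancer of C-propeptide removal, from 26.6 to 41.8 CPM (0.65 ± 0.15, edgeR adjusted p = 0.0131). Bmp1, the C-proteinase, had a log2 fold change of 0.42 that did not pass. In preSTC against preCTC, 7 were lower and 0 higher, led by Lox (-1.62) and Loxl1 (-1.51), beside 19.6% and 19.1% of all genes. In postSTC against preCTC, 3 were lower (Loxl2, Pxdn and Adamts14) and 0 higher, beside 7.37% and 9.27% of all genes. Of these, Pxdn is the peroxidase that crosslinks collagen IV.

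The collagen receptors included calls in both directions. Of 10 tested, Ddr2, Itga11, Mrc2 and Itga1 were higher in postSTC than in preSTC and Itga2 was lower. These 4 higher and 1 lower stand beside 11.1% and 6.9% of all genes. Ddr2, a receptor kinase for fibrillar collagen on mesenchymal cells, rose from 32.1 to 59.0 CPM (0.88 ± 0.20, edgeR adjusted p = 0.0120), and Itga11, the integrin subunit of fibroblasts, from 6.95 to 13.4 CPM (0.95 ± 0.22, edgeR adjusted p = 0.0122). Itga2, a collagen-binding subunit found on epithelium, fell by 0.96 ± 0.22 on the log2 scale from 97.3 CPM (edgeR adjusted p = 0.0125). The common partner Itgb1 stood at 447 and 503 CPM (0.17), and Ddr1, the epithelial receptor kinase, at 156 and 167 CPM (0.10). In preSTC against preCTC 4 were lower and 1, Gp6, was higher (2.03 ± 0.62), beside 19.6% and 19.1% of all genes. Between postSTC and preCTC, Itga2 (-0.93) and Itga1 (-0.51) were lower and 0 higher, beside 7.37% and 9.27% of all genes.

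TGF-beta and PDGF genes, whose proteins drive matrix production, were higher in 7 of 18 after the operation and lower in 0, beside 11.1% and 6.9% of all genes. Pdgfd rose from 1.17 to 9.65 CPM (3.04 ± 0.49, edgeR adjusted p = 0.00245) and Tgfb3 from 10.3 to 45.1 CPM (2.13 ± 0.38, edgeR adjusted p = 0.00410). The most abundant members, Tgfbr2 (0.45) and Smad4 (-0.08), did not pass. In preSTC against preCTC 6 were lower and 2 higher, the latter Pdgfc (1.76 ± 0.27, edgeR adjusted p = 0.000378) and Tgfb1 (0.55 ± 0.15, edgeR adjusted p = 0.0117). In postSTC against preCTC 1 was higher (Pdgfc, 1.76) and 1 was lower, beside 9.27% and 7.37% of all genes. The shares of all genes in preSTC against preCTC were 19.6% lower and 19.1% higher.

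Markers of collagen-producing cells differed between the same groups. Of 12 fibroblast markers, 7 were higher in postSTC than in preSTC, 9 lower in preSTC than in preCTC and 1 (Postn, -2.02) lower in postSTC than in preCTC. Their summed level was 1118 to 1267 CPM in preSTC, 1692 to 3752 CPM in postSTC and 2442 to 3354 CPM in preCTC. Pi16, of adventitial fibroblasts, rose from 3.00 to 42.1 CPM after the operation (3.81 ± 0.40, edgeR adjusted p = 0.000489) and Dpt from 160 to 606 CPM (1.92 ± 0.30, edgeR adjusted p = 0.00229). Of 12 smooth muscle markers, 7 were higher in postSTC than in preSTC, 11 lower in preSTC than in preCTC and 5 lower in postSTC than in preCTC, with sums of 3932 to 5940, 7009 to 10662 and 11506 to 19308 CPM. Lmod1 rose after the operation by 1.15 ± 0.20 (edgeR adjusted p = 0.00327). Of 12 epithelial markers, 1 (Vil1, -0.95) was lower in postSTC than in preSTC. Compared with preCTC, preSTC had 4 higher (Vil1, Krt20, Lgals4 and Cldn7) and Cdx1 lower, and in postSTC Vil1 was higher and Cdx1 and Krt19 lower. Their sums were 15805 to 19973, 8071 to 16494 and 11374 to 16052 CPM. No marker of these 3 lists was at 0 in all libraries. Over all genes, 11.1% were higher and 6.9% lower in postSTC than in preSTC. The shares were 19.1% higher and 19.6% lower in preSTC against preCTC, and 9.27% and 7.37% in postSTC against preCTC. The part of these cells in the collagen differences was not tested, since the smooth muscle score above and the group cannot be told apart in either comparison with preSTC.

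**Figure D5:**
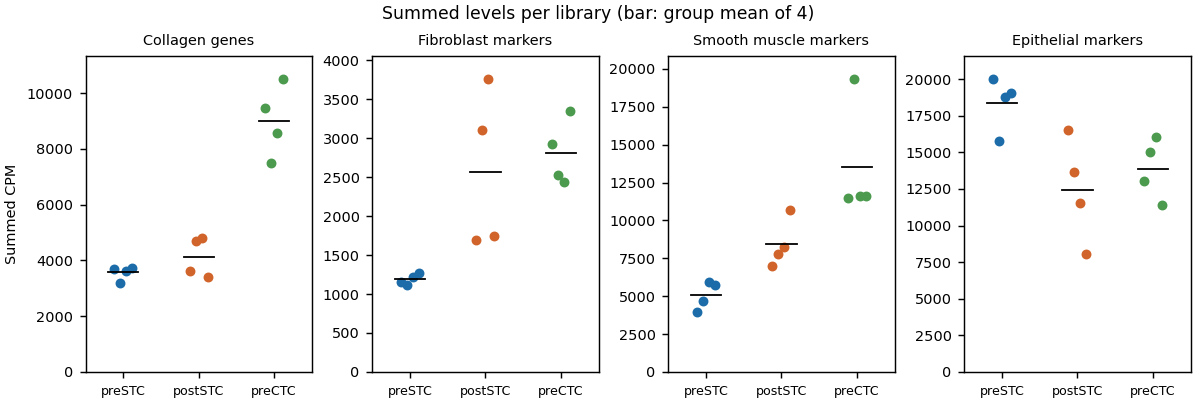
Summed CPM per library of the 43 collagen genes and of 12 fibroblast, 12 smooth muscle and 12 epithelial markers, with a bar at each mean of 4 libraries. Fibroblast and smooth muscle sums are lowest in the 4 preSTC libraries (up to 1267 and 5940 CPM), while collagen sums of preSTC and postSTC overlap below those of preCTC.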

How the data were processed

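Per the labels' protocols, poly(A) RNA of 12 rat intestine samples was isolated in TRIzol and turned into libraries with the VAHTS Universal V6 kit. The authors' deposited table holds read counts per gene, and a second deposited table holds FPKM values, which were proportional to counts over column totals within each gene (largest relative deviation 6.66e-16). Per the submitters' processing notes, fastp, HISAT2, HTSeq and mRatBN7.2 were named, without roles. The series' design text describes a pig genome and other tools and was not used. Counts were tested with edgeR 4.0.16 in R 4.3.3: TMM scaling, filterByExpr (15704 of 18749 genes kept), 1 quasi-likelihood fit of group to all 12 libraries, two-sided F-tests, and Benjamini-Hochberg adjustment over all genes. SE is the log2 fold change over the square root of F. CPM and FPKM levels were rescaled by TMM factors. Within-library log2 chain ratios (0.1 CPM added) had two-sided exact permutation tests.

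Alternatives used DESeq2 1.42.0, limma 3.58.1, other filters, scalings, blocks and left-out libraries. The script was tested on simulated data. Named genes were every called member plus 13 fixed chains, and in the 4 collagen-related lists the 2 called genes of smallest adjusted p and 2 uncalled of highest CPM. Other genes were named, after their values were seen, where a count was small. Members and lists (14, 155 genes) were chosen with earlier results of these data known. Same-numbered postSTC and preSTC libraries had deviations that correlated across all genes at 0.236, 0.158 and 0.168 (replicates 1, 5 and 7). Over the collagen genes alone the correlations were -0.164, -0.644 and -0.129. The labels do not say what a replicate number marks, so the main fit held no replicate block. The block was run only as an alternative. No 2 libraries agreed within sampling noise (chi-square per gene at least 32.7). Lists of endothelial, glial, mesothelial, adipocyte and leukocyte markers were run as well.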

Additional observations from a re-analysis of the deposited data

Results flagged for a closer look

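Within each group of 4 libraries, a gene or count ratio was singled out when the gap between an extreme library and its nearest neighbour took more of the group's range than Dixon's critical value for 4 values allows. This held for 8 of 141 groups of values, and chance flags about 1 in 20 groups, so the number is close to what chance alone gives. Col7a1 stood at 15.7 CPM in postSTC7, against 1.16 to 1.91 CPM in the other postSTC libraries. Col17a1 stood at 14.2 CPM in preCTC1, against 3.39 to 4.84 CPM. Col6a1 and Col6a2 stood at 539 and 524 CPM in preCTC5, below 678 to 705 and 635 to 656 CPM in the other preCTC libraries. Col23a1 stood at 8.70 CPM in preSTC1, above 5.00 to 5.18 CPM. Col24a1 and Col6a5 stood at 0.972 and 60.8 CPM in preSTC7, below 2.67 to 2.79 and 82.2 to 83.8 CPM. The ratio of Col1a1 to Col1a2 counts was 1.55 in preSTC9, above 1.41 to 1.43 in the other preSTC libraries.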

How the results depend on the processing

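Counts of called collagen genes were 8 (7 higher, 1 lower) for postSTC against preSTC, 26 (all lower) for preSTC against preCTC and 19 (all lower) for postSTC against preCTC. DESeq2 size factors, 2 other count filters and removal of the accessory gland genes left each within 1.5 times. For postSTC against preSTC, the replicate block gave 6 higher and 1 lower with 12 libraries and 0 in either direction with the 8 compared, the smooth muscle covariate gave 0 in either direction, and limma gave 1 higher and 0 lower on log2(FPKM + 1) and 2 higher and 0 lower on log2(FPKM + 0.1). Leaving out postSTC1 and postSTC7 together, chosen after seeing the data, gave 11 higher and 1 lower, of which 6 and 0 were among the calls with all libraries (Col7a1 and Col6a4 had adjusted p of 0.103 and 0.0763), and leaving out 1 library gave 6 to 9 higher and 1 to 2 lower. For preSTC against preCTC, genes higher numbered 2 with DESeq2, 1 with limma voom, 2 with the 8 libraries alone, 1 and 2 with the replicate block on 12 and 8 libraries, 1 on log2(FPKM + 0.1) and 0 to 1 without 1 library. Genes lower numbered 8 with the covariate, 24 and 28 with the block, and 22 to 25 without 1 library. For postSTC against preCTC, the replicate block gave 13 lower on 12 libraries and 0 on 8, DESeq2 and the covariate each gave 1 higher, and leaving out 1 library gave 0 to 1 higher and 15 to 19 lower. The same-number correlations across all genes ran from -0.0278 to 0.222 and from -0.0159 to 0.220 in the comparisons with preCTC. Whether equal numbers mark pairs is not labelled for any comparison. In the 8-library block fits with postSTC, only replicates 1, 5 and 7 occur in both groups, so few libraries set their spread. The causes were not tested, and in the comparisons with preSTC the covariate and the group cannot be told apart.

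Signs that turned belonged to genes without a call. Between postSTC and preSTC, log2 fold changes became 0.15 for Col4a1 and 0.027 for Col4a2 with the covariate, 0.060 and 0.12 without postSTC1 and postSTC7, and -0.07 for Col1a1 on both FPKM scales (-0.071 and -0.074), with Col1a1 from -0.022 to 0.15 without 1 library. Between postSTC and preCTC, Col15a1 and Col18a1 became -0.26 and -0.15 on log2(FPKM + 1) and -0.27 and -0.16 on log2(FPKM + 0.1). Without 1 library they ran from -0.11 to 0.14 and from -0.053 to 0.31, and Col14a1 became 0.29 without postSTC1 and postSTC7. FPKM without TMM moved the median of all genes to -0.17 (log2(FPKM + 1)) and -0.24 (log2(FPKM + 0.1)) in that comparison, from 0.04, and its calls over all genes to 452 higher and 1216 lower, from 1455 and 1157. Low members such as Col19a1, Col4a4 and the collagen IX genes rest on few reads. PCR copies cannot be told from separate molecules, since the reads carry no molecular identifiers.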

Other observations

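Other cell types of the gut wall that rest on or make collagen were measured through their markers, with calls from edgeR's test. Of all genes, 11.1% were higher and 6.9% lower in postSTC than in preSTC. The shares were 19.1% higher and 19.6% lower in preSTC against preCTC, and 9.27% and 7.37% in postSTC against preCTC. No list was tested against those shares. Of 10 endothelial markers, 3 were higher in postSTC than in preSTC, 3 were lower in preSTC than in preCTC and none passed between postSTC and preCTC, and their summed level was 240 to 272 CPM in preSTC, 283 to 507 CPM in postSTC and 312 to 412 CPM in preCTC. Of 7 glial and Schwann cell markers, 1 was higher in postSTC than in preSTC, 1 was higher and 3 lower in preSTC than in preCTC, and 2 were lower in postSTC than in preCTC, with sums of 318 to 396, 236 to 510 and 249 to 313 CPM. Of 5 adipocyte markers, 2 were higher after the operation and none passed in the other comparisons, and the sums were uneven, at 27.8 to 188, 11.7 to 1062 and 143 to 323 CPM. Of 5 mesothelial markers, 1 was higher in postSTC than in each other group and none passed between preSTC and preCTC, with sums of 3.09 to 56.9, 8.92 to 17.6 and 7.51 to 27.7 CPM. Of 7 macrophage and leukocyte markers, 2 were higher after the operation, 1 was higher and 2 lower in preSTC than in preCTC, and 1 was higher and 1 lower in postSTC than in preCTC, with sums of 492 to 763, 327 to 804 and 423 to 587 CPM. The part of these cell types in the collagen values was not tested.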
